A study of Homo sapiens with 24 samples.

Results

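The death receptors and their proximal signalling genes were 10 genes taken by symbol from the deposited tables: the ligand TNFSF10 (TRAIL), the receptors FAS, TNFRSF10A, TNFRSF10B and TNFRSF1A, the decoy receptors TNFRSF10C and TNFRSF10D, the adaptor FADD, the initiator caspase CASP8 and its inhibitor CFLAR (c-FLIP). They were 10 of 37967 genes in all. A count table gave the values of FAS, FADD, CASP8 and CFLAR, and a second table, held here in part and reaching further down the alphabet, gave those of the other 6. RNA was sequenced from HCT116, a human colorectal cancer cell line, and from HCT116 oxpl-R, a derivative made resistant by repeated pulses of the platinum drug oxaliplatin, which binds to DNA and damages it. HCT116 oxpl-R is thus a selected cell population and 1 derivative of 1 line. All groups carried the TetOn-E1A transgene, which makes the adenoviral protein E1A when doxycycline is present, and the controls of both lines carried it too. In each line the cells were left untreated (control), given 0.5 µg/mL doxycycline (E1A), given 25 µM oxaliplatin for 24 h (oxaliplatin), or given doxycycline 3 h before the same dose of oxaliplatin (E1A + oxaliplatin). Each of the 8 groups had 3 libraries named biological replicates. The E1A transcript itself was not analysed here, and since every E1A group received doxycycline and no other group did, effects of E1A and of doxycycline cannot be told apart.

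In the extrinsic pathway of apoptosis, TRAIL or the FAS ligand draws its receptors together at the cell surface, and the receptors' death domains recruit FADD. FADD in turn gathers CASP8, which activates itself and then cuts the executioner caspases or BID, and CFLAR, which resembles CASP8 but lacks its protease activity, limits this step. TNFRSF10C and TNFRSF10D also bind TRAIL but lack a working death domain, and FAS, TNFRSF10A, TNFRSF10B, TNFRSF10C and TNFRSF10D are known as targets of p53, which HCT116 cells carry in wild-type form.

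The 250 bases before the transcription start are shown for the receptor FAS and the adaptor FADD, whose levels changed with oxaliplatin, and for the ligand TNFSF10, which was near 0 (RefSeq, GRCh38.p14, 5′ to 3′ on the gene's strand). Capitals mark matches on either strand to the motifs given here, which are the GC box (GGGCGG), the TATA box (TATAAA), the AP-1 motif (TGANTCA), the CCAAT box (CCAAT) and the p53 half-site.
FAS, chr10:88990548-88990797, plus strand: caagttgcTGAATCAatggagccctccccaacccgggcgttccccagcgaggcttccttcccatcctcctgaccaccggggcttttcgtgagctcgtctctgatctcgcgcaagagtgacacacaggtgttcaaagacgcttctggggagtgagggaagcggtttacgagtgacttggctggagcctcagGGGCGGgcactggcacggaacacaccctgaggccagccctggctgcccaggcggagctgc
FADD, chr11:70203046-70203295, plus strand: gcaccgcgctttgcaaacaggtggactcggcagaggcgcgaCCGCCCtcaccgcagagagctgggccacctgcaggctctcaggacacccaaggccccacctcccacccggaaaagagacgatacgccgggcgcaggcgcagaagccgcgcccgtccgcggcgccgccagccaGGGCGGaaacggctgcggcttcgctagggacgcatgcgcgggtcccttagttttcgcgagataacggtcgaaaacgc
TNFSF10, chr3:172523431-172523680, minus strand: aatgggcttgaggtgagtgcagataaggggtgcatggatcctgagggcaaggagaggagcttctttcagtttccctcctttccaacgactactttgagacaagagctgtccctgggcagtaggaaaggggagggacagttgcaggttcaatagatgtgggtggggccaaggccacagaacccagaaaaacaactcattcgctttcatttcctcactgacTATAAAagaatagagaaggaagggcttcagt
The printed stretch of FAS held an AP-1 and a GC box match and that of FADD GC box matches only. That of TNFSF10 held a TATA box match close to the start. The longer window of FADD, counted next, also held an AP-1 match that the printed stretch does not hold. In the RefSeq table of promoters, 13 windows of 300 bases belonged to 6 of the 10 genes. TNFRSF10A, TNFRSF10B, TNFRSF10C and TNFRSF10D had no window, so the counts of motifs do not cover them. A p53 half-site lay in 2 of the 13, in another start of FAS and in 1 of CASP8, against 6.63% of all 35116 windows. GC boxes lay in 7 of the 13 against 45% of all, AP-1 motifs in 5 against 7.71%, TATA boxes in 2 against 11.5% and CCAAT boxes in 2 against 34.6%. An NF-kB and an E2F motif were also searched and are not given here, a choice made after their matches were seen. Windows of 1 gene can overlap, and a match is a description of the letters only.

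The 4 TRAIL receptor genes lie side by side on chromosome 8, in the order TNFRSF10B, TNFRSF10C, TNFRSF10D and TNFRSF10A, and CFLAR (chromosome 2, 201116154 to 201176687), CASP10 and CASP8 (201233443 to 201361836) lie side by side on chromosome 2 (GRCh38, GENCODE 44). FAS lies on chromosome 10 (88953813 to 89029605), FADD on chromosome 11 (70203296 to 70207390), TNFRSF1A on chromosome 12 (6328757 to 6342114) and TNFSF10 on chromosome 3 (172505508 to 172523475). FAS overlaps ACTA2 on the opposite strand, and TNFRSF10C overlaps unnamed genes on its own strand, so how reads were divided there is uncertain. The same holds for reads that the related receptors TNFRSF10C and TNFRSF10D have in common.

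Library totals ran from 24838095 to 37927720 estimated counts in the count table and from 28004261 to 42613322 in the second. Levels are given as CPM, counts per 1000000 after TMM scaling within their own table, and levels of different genes are not compared, since CPM is not per length. The epithelial markers EPCAM, CDH1, KRT8, KRT18, KRT19 and CDX2 were present in all 24 libraries, EPCAM at 174.7 to 388 CPM, whereas the colon markers CDX1, KRT20 and LGALS4 stayed at or below 1.65 CPM and CDX1 was at 0 in 18 libraries. Of the leukocyte markers PTPRC and CD3E stayed below 1 CPM and CD68 reached 6.57 CPM, and the endothelial markers PECAM1, CDH5 and KDR stayed at or below 0.418 CPM. The fibroblast gene COL1A1 lay between 13.0 and 40.3 CPM, COL1A2 reached 13.0 CPM, PDGFRB reached 1.17 CPM and DCN 0.0955 CPM. Some libraries stood apart. HCT116 oxaliplatin replicate 3 correlated at 0.98 with HCT116 E1A + oxaliplatin replicate 1 and at 0.953 and 0.958 with its own group (Pearson's r of log2 levels over 9991 genes). HCT116 E1A + oxaliplatin replicates 2 and 3 correlated at 0.974 to 0.991 with HCT116 oxaliplatin replicates 1 and 2 and at 0.961 and 0.952 with replicate 1 of their own group. In HCT116 oxpl-R the libraries numbered 3 deviated together (correlations of 0.291, 0.581 and 0.737 in 3 pairs of groups), and so did those numbered 2 (0.263, 0.498 and 0.536). Each of these sets was left out in turn. Counts of called genes without it are given below or with the results on processing, for the comparisons named there. The HCT116 oxpl-R oxaliplatin libraries correlated at only 0.952 to 0.965 with each other, and the untreated HCT116 oxpl-R libraries at 0.974 to 0.99.

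TNFSF10, the ligand of the TRAIL receptors, was at or near 0 in every group. It was at 0 counts in 15 of 24 libraries, reached at most 3.64 counts in 23 of 24, and had 19.4 counts in HCT116 oxpl-R E1A replicate 1, 0.49 CPM. A count of 0 allows up to 3 counts, so no fold is given for it in any comparison.

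**Figure D1:**
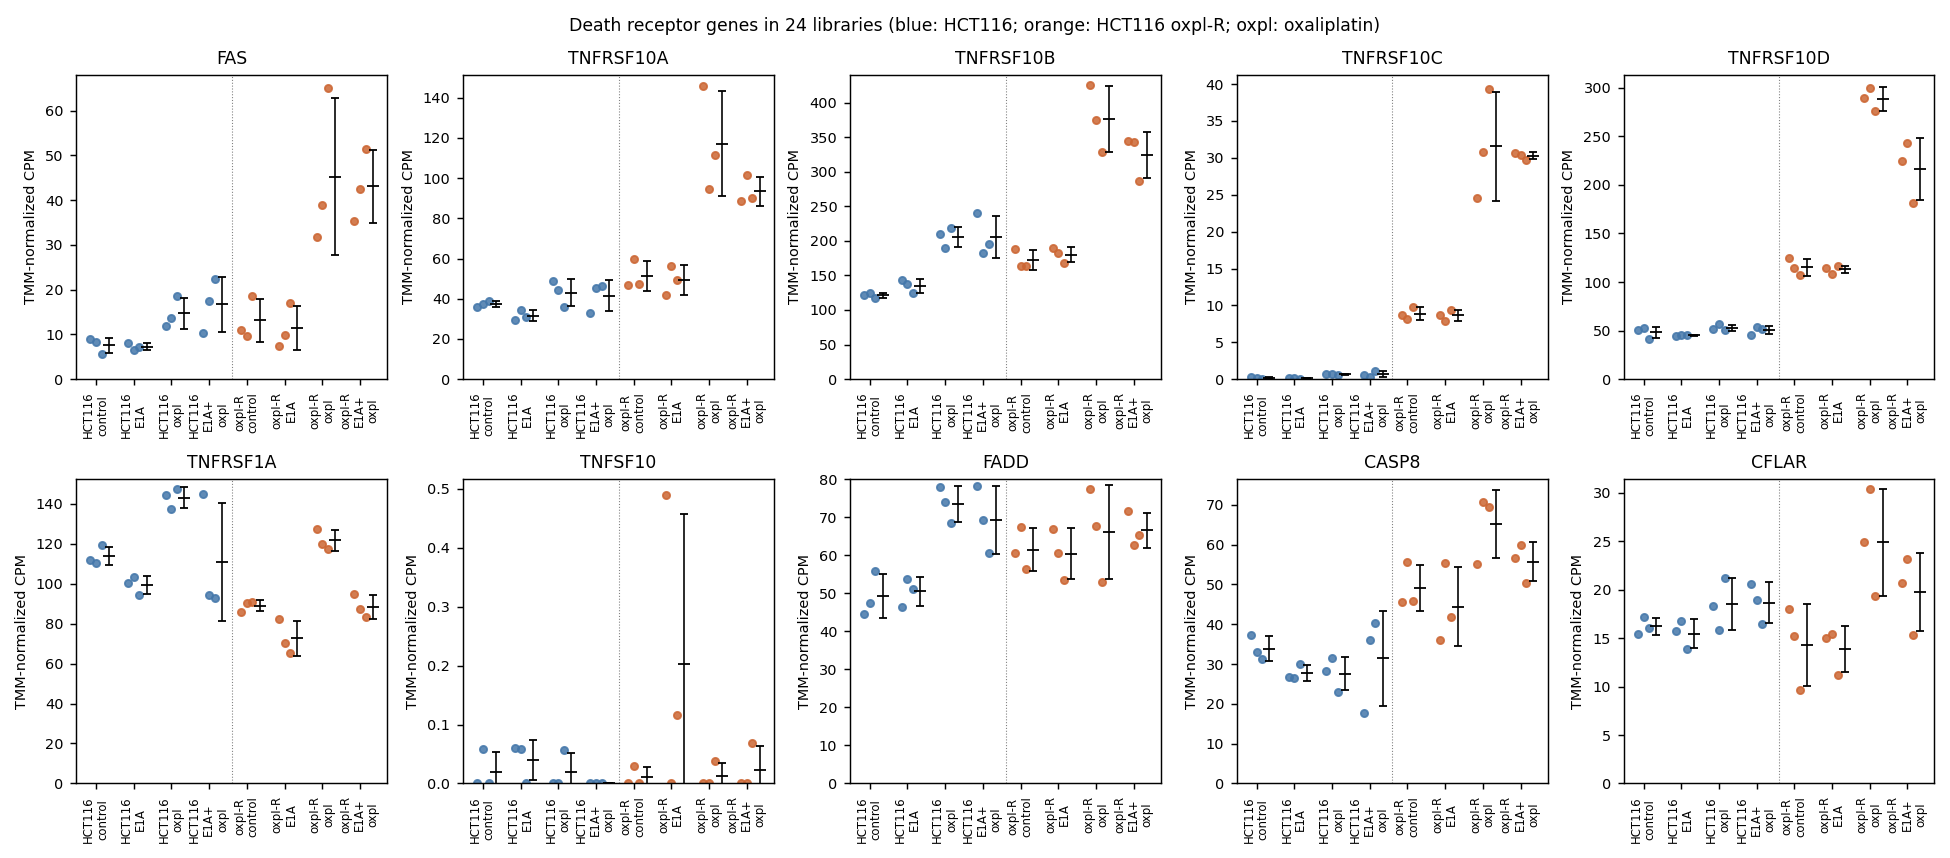
Level of each of the 10 genes (y axis, TMM-normalized CPM of its own table, linear from 0) in the 8 groups (x axis), each point 1 library in replicate order and the black mark the mean ± SD of 3, with SD bars cut off at 0. TNFRSF10D lies at 41.5 to 56.6 CPM in the 12 HCT116 libraries and at 107 to 300.1 CPM in the 12 HCT116 oxpl-R libraries, while TNFSF10 stays below 0.5 CPM throughout.

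Oxaliplatin was first compared with untreated cells within each line. In HCT116 oxpl-R 6 of the 10 genes were called, all of them higher with oxaliplatin: FAS, TNFRSF10A, TNFRSF10B, TNFRSF10C, TNFRSF10D and CFLAR (edgeR's quasi-likelihood test, Benjamini-Hochberg adjusted p under 0.05). Of all genes tested in that comparison, 6.11% were called in the count table and 5.8% in the second. In HCT116 4 of the 10 were called, all higher: FAS, TNFRSF10B, TNFRSF10C and FADD, where 17.4% of genes in the count table and 16.4% in the second were called. Here and below, such shares are over every gene with a count, genes at low counts included. The share among genes with a mean count of at least 10 is not given here and may be higher. The median log2 fold change over the 9 genes other than TNFSF10 was 1.12 in HCT116 oxpl-R and 0.33 in HCT116. Over all genes with a mean count of at least 10 it was 0.01 in the count table and -0.01 in the second table in HCT116 oxpl-R, and -0.09 and -0.03 in HCT116. Without the HCT116 oxpl-R libraries numbered 3, and likewise without those numbered 2, 5 of the 10 were called in HCT116 oxpl-R, CFLAR being the one lost. As the RNA is bulk, a change in the share of cells that make a transcript and a change in its amount per cell cannot be told apart.

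TNFRSF10A, the death receptor DR4, was measured at 35.7, 37.2 and 38.96 CPM in untreated HCT116 and at 48.9, 44.1 and 35.8 CPM with oxaliplatin. The HCT116 oxpl-R libraries gave 46.6, 59.7 and 47.4 CPM untreated and at 145.7, 94.6 and 111 CPM with oxaliplatin. The HCT116 groups overlapped, and the lowest treated HCT116 oxpl-R library lay well above the highest untreated one. TNFRSF10A rose 2.29-fold in HCT116 oxpl-R (log2 fold change 1.19, SE 0.18, adjusted p = 4.63e-05 by edgeR's quasi-likelihood test), and in HCT116 the log2 fold change was 0.20 (SE 0.18, adjusted p = 0.542).

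TNFRSF10B, the death receptor DR5, stood at 122, 124 and 117 CPM in untreated HCT116 and at 209.96, 190.2 and 218 CPM with oxaliplatin. In HCT116 oxpl-R TNFRSF10B stood at 189, 164 and 164 CPM untreated and at 425, 374 and 329 CPM with oxaliplatin. In neither line did the groups overlap. TNFRSF10B rose 1.70-fold in HCT116 (log2 fold change 0.77, SE 0.15, adjusted p = 0.000672 by edgeR) and 2.18-fold in HCT116 oxpl-R (1.12, SE 0.15, adjusted p = 5e-06).

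TNFRSF10C, the decoy receptor DcR1, which is anchored to the membrane by a lipid, had only 9.7, 2.98 and 1.86 counts in untreated HCT116, or 0.296, 0.0887 and 0.0618 CPM, and 0.654, 0.675 and 0.603 CPM with oxaliplatin. Its HCT116 oxpl-R libraries were at 8.74, 8.13 and 9.78 CPM untreated and at 24.5, 30.8 and 39.3 CPM with oxaliplatin. All treated libraries were above all untreated ones in both lines. The rise was 4.22-fold in HCT116 (log2 fold change 2.08, SE 0.49, adjusted p = 0.0037 by edgeR), from the few counts given above, and 3.55-fold in HCT116 oxpl-R (1.83, SE 0.33, adjusted p = 0.000454). Fitted on the compared groups alone, the adjusted p in HCT116 was 0.0775.

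TNFRSF10D, the decoy receptor DcR2 with a shortened death domain, was at 50.9, 52.2 and 41.5 CPM in untreated HCT116 and at 51.9, 56.6 and 50.2 CPM with oxaliplatin. HCT116 oxpl-R libraries were at 124, 114 and 107 CPM untreated and at 289, 300.1 and 276 CPM with oxaliplatin. The HCT116 groups overlapped and those of HCT116 oxpl-R were far apart. TNFRSF10D rose 2.51-fold in HCT116 oxpl-R (log2 fold change 1.33, SE 0.15, adjusted p = 2.13e-07 by edgeR), whereas in HCT116 the log2 fold change was 0.13 (SE 0.14, adjusted p = 0.611).

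FAS, the receptor of the FAS ligand, was at 8.87, 8.23 and 5.64 CPM in untreated HCT116 and at 11.8, 13.6 and 18.6 CPM with oxaliplatin. In HCT116 oxpl-R it was at 11.03, 9.73 and 18.7 CPM untreated and at 31.9, 38.8 and 65.1 CPM with oxaliplatin. Replicate 3 was the highest of each of these HCT116 oxpl-R groups, and treated and untreated libraries did not overlap in either line. FAS rose 3.44-fold in HCT116 oxpl-R (log2 fold change 1.78, SE 0.32, adjusted p = 0.000252 by edgeR) and 1.93-fold in HCT116 (0.95, SE 0.31, adjusted p = 0.0338). Without the HCT116 oxpl-R libraries numbered 3 its log2 fold change in HCT116 oxpl-R was 1.77 (adjusted p = 5.25e-07). The call in HCT116 was lost in the second table (adjusted p = 0.177), in both limma fits (0.0747 and 0.0591) and without HCT116 control replicate 1, 2 or 3 or HCT116 oxaliplatin replicate 3 (adjusted p between 0.0531 and 0.124).

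FADD, the adaptor, was at 44.5, 47.6 and 55.8 CPM in untreated HCT116 and at 77.8, 73.9 and 68.6 CPM with oxaliplatin. FADD in HCT116 oxpl-R was at 60.7, 67.4 and 56.4 CPM untreated and at 77.5, 67.7 and 52.98 CPM with oxaliplatin. The HCT116 groups did not overlap, and those of HCT116 oxpl-R did. FADD rose 1.49-fold in HCT116 (log2 fold change 0.58, SE 0.17, adjusted p = 0.0158 by edgeR), a call that was lost without HCT116 control replicate 1 or 2 (adjusted p = 0.093 and 0.0736), and in HCT116 oxpl-R the log2 fold change was 0.10 (SE 0.17, adjusted p = 0.888). Without HCT116 oxpl-R oxaliplatin replicate 1 the latter was -0.028.

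CFLAR, the inhibitor of CASP8, was at 15.5, 17.2 and 16.0 CPM in untreated HCT116 and at 18.4, 15.9 and 21.3 CPM with oxaliplatin. The inhibitor was in HCT116 oxpl-R at 18.0, 15.2 and 9.65 CPM untreated and at 24.9, 30.4 and 19.3 CPM with oxaliplatin. The HCT116 groups overlapped, and those of HCT116 oxpl-R were just apart. CFLAR rose 1.74-fold in HCT116 oxpl-R (log2 fold change 0.80, SE 0.23, adjusted p = 0.0292 by edgeR). This call was lost without HCT116 oxpl-R control replicate 2 or 3 or HCT116 oxpl-R oxaliplatin replicate 1 or 2 (adjusted p between 0.0672 and 0.238), without all HCT116 oxpl-R libraries numbered 3 (0.0893) or numbered 2 (0.299) and with the compared groups fitted alone (0.126). In HCT116 the log2 fold change was 0.19 (SE 0.23, adjusted p = 0.664) and, in the second table, -0.12.

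CASP8, the initiator caspase, was at 37.3, 33.1 and 31.2 CPM in untreated HCT116 and at 28.3, 31.4 and 23.1 CPM with oxaliplatin. In HCT116 oxpl-R it was at 45.6, 55.7 and 45.9 CPM untreated and at 55.2, 70.7 and 69.5 CPM with oxaliplatin. The groups overlapped in both lines, and the log2 fold changes were -0.30 (SE 0.22, adjusted p = 0.426 by edgeR) and 0.41 (SE 0.22, adjusted p = 0.38). TNFRSF1A, the main receptor of TNF, was at 112, 111 and 119 CPM in untreated HCT116 and at 144, 137 and 148 CPM with oxaliplatin, and at 86.0, 90.3 and 90.8 CPM untreated and 128, 120.1 and 117 CPM with oxaliplatin in HCT116 oxpl-R. Its groups did not overlap in either line. Its log2 fold changes were 0.33 (SE 0.16, adjusted p = 0.162) and 0.45 (SE 0.16, adjusted p = 0.096), and it passed the test in HCT116 oxpl-R by DESeq2 (adjusted p = 0.0221), by both limma fits (0.0332 and 0.0401) and with a filter on low counts (0.0434), the last of which also called it in HCT116 (0.0446). In all, 7 of the 10 genes in HCT116 oxpl-R and 5 of the 10 in HCT116 had groups that did not overlap, against 18.4% and 18.5% of all genes in HCT116 oxpl-R and 33% and 31.1% in HCT116 in the count table and the second table.

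**Figure D2:**
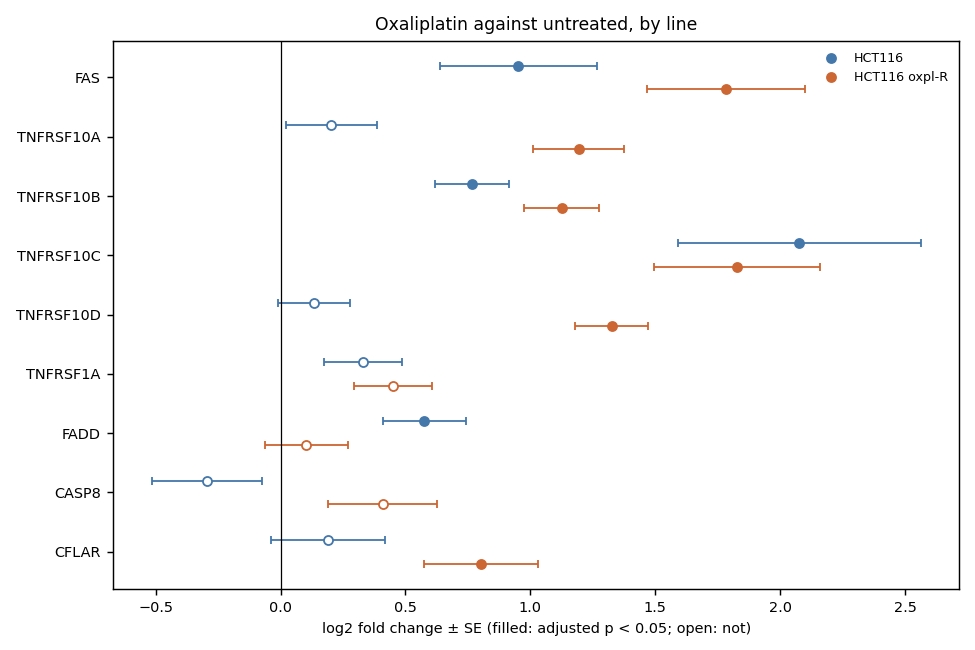
Log2 fold change of oxaliplatin against untreated cells (x axis) for the 9 genes other than TNFSF10 (y axis) in HCT116 (blue) and HCT116 oxpl-R (orange), each from 3 against 3 libraries, with bars of ± SE and filled points where the adjusted p was under 0.05. TNFRSF10A and TNFRSF10D are near 0 in HCT116 (0.20 and 0.13) and above 1 in HCT116 oxpl-R (1.19 and 1.33).

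The oxaliplatin responses of the lines were then compared by their interaction. The rise was larger in HCT116 oxpl-R for TNFRSF10A, by 0.99 on the log2 scale (SE 0.26, adjusted p = 0.0258 by edgeR's quasi-likelihood test), and for TNFRSF10D, by 1.19 (SE 0.20, adjusted p = 0.000729). These were 2 of the 10 genes, and the interaction was called for 2.78% of all genes in the count table and 3.64% in the second. The TNFRSF10A call was lost without HCT116 control replicate 1, 2 or 3, HCT116 oxaliplatin replicate 2, HCT116 oxpl-R control replicate 1 or 3 or HCT116 oxpl-R oxaliplatin replicate 1 (adjusted p between 0.0508 and 0.0762), and without all HCT116 oxpl-R libraries numbered 3 (0.0553). The difference was 0.83 for FAS (SE 0.44, adjusted p = 0.366), 0.70 for CASP8 (SE 0.31, adjusted p = 0.257), 0.61 for CFLAR (SE 0.32, adjusted p = 0.362), 0.36 for TNFRSF10B (SE 0.21, adjusted p = 0.426) and 0.12 for TNFRSF1A (SE 0.22, adjusted p = 1). It was -0.47 for FADD (SE 0.24, adjusted p = 0.332) and -0.25 for TNFRSF10C (SE 0.55, adjusted p = 1), the latter 1.18 with an adjusted p of 0.0087 by limma on log2(CPM + 1), a scale that shrinks folds of genes under 1 CPM. Among these 7 genes a difference in response between the lines was thus not called, with that exception.

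The lines were next compared at each treatment. TNFRSF10C and TNFRSF10D were called higher in HCT116 oxpl-R at all 4 treatments. In both comparisons with oxaliplatin FAS, TNFRSF10A, TNFRSF10B and CASP8 were called higher too. These genes were not higher with oxaliplatin alone, since their untreated groups did not overlap either. With the untreated groups fitted alone by edgeR, FAS, TNFRSF10A and CASP8 were called higher as well (adjusted p = 0.0271, 0.0277 and 0.0079). No gene of the 10 was called lower in HCT116 oxpl-R at any treatment by edgeR fitted on all groups without the filter on low counts or the replicate block. Other fits, those 2 included, called TNFRSF1A lower as given below. In untreated cells 3 of the 10 were higher, TNFRSF10B, TNFRSF10C and TNFRSF10D, where 14.1% of genes in the count table and 12.8% in the second were called. With E1A 4 were higher, TNFRSF10A, TNFRSF10C, TNFRSF10D and CASP8 (14.4% and 12.2% of all genes). With oxaliplatin 6 were higher (25.6% and 25.1%), and with E1A + oxaliplatin 6 were higher (19.3% and 18%). Without the HCT116 oxpl-R libraries numbered 3 the counts were 3, 4, 6 and 6 in this order, and without those numbered 2 they were 3, 2, 6 and 6. The median log2 difference over the 9 genes other than TNFSF10 was 0.51 untreated, 0.64 with E1A, 1.24 with oxaliplatin and 0.83 with E1A + oxaliplatin, and over genes with a mean count of at least 10 it lay between -0.05 and 0.09 in each case. Groups did not overlap for 8, 6, 7 and 6 of the 10 genes, against 35%, 29.6%, 30.2% and 31.3% of all genes in the count table and 32.8%, 29.1%, 31.1% and 29.8% in the second.

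TNFRSF10C differed by 5.86 on the log2 scale in untreated cells (SE 0.46, 57.9-fold, adjusted p = 1.43e-10 by edgeR), with 245 to 296 counts in HCT116 oxpl-R against 1.86 to 9.7 in HCT116. With E1A its HCT116 libraries had 4.87, 5.88 and 0 counts and the HCT116 oxpl-R libraries 339, 238 and 323. Its difference was 6.23 with E1A, 5.61 with oxaliplatin and 5.45 with E1A + oxaliplatin, with SE of 0.47, 0.41 and 0.40 and an adjusted p of at most 1.42e-10. TNFRSF10D differed by 1.26 untreated (SE 0.15, 2.39-fold, adjusted p = 3.29e-07) and 1.32 with E1A, and by 2.45 with oxaliplatin (5.45-fold) and 2.10 with E1A + oxaliplatin. Every HCT116 oxpl-R library lay above every HCT116 library for both decoy receptors, whatever the treatment.

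TNFRSF10B differed by 0.51 untreated (SE 0.15, 1.42-fold, adjusted p = 0.02 by edgeR), a call that was lost without HCT116 control replicate 1, 2 or 3 or HCT116 oxpl-R control replicate 1 (adjusted p between 0.0584 and 0.104) and without the HCT116 oxpl-R libraries numbered 2 (0.125). It differed by 0.41 with E1A (adjusted p = 0.0664), where DESeq2 (0.0196), both limma fits (0.0187 and 0.0253) and the fit with a filter on low counts (0.0354) called it higher. It differed by 0.87 with oxaliplatin (adjusted p = 4.63e-05) and by 0.66 with E1A + oxaliplatin (adjusted p = 0.00186). TNFRSF10A differed by 0.46 untreated (SE 0.18, adjusted p = 0.102), 0.64 with E1A (adjusted p = 0.0178), 1.45 with oxaliplatin (adjusted p = 5.91e-07) and 1.17 with E1A + oxaliplatin (adjusted p = 2.92e-05). The E1A call was lost without HCT116 E1A replicate 1 or 3 or HCT116 oxpl-R E1A replicate 2 (adjusted p = 0.0927, 0.0544 and 0.109) and without the HCT116 oxpl-R libraries numbered 2 (0.247). Both death receptors were thus higher in HCT116 oxpl-R in each comparison that included oxaliplatin. FAS differed by 0.79 untreated (SE 0.31, adjusted p = 0.0963), 0.65 with E1A (adjusted p = 0.189), 1.62 with oxaliplatin (3.08-fold, adjusted p = 0.000183) and 1.36 with E1A + oxaliplatin (adjusted p = 0.00183). Without the HCT116 oxpl-R libraries numbered 3 the FAS differences were 0.45, 0.25, 1.27 and 1.22 in this order, with the last 2 called, and without those numbered 2 the untreated difference was 0.98 and called (adjusted p = 0.0152).

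CASP8 differed by 0.54 untreated (SE 0.22, adjusted p = 0.112 by edgeR), 0.68 with E1A (adjusted p = 0.0358), 1.24 with oxaliplatin (2.36-fold, adjusted p = 6.94e-05) and 0.83 with E1A + oxaliplatin (adjusted p = 0.00708). The E1A call was lost without HCT116 E1A replicate 1, 2 or 3 or HCT116 oxpl-R E1A replicate 2 (adjusted p between 0.0536 and 0.192), without the HCT116 oxpl-R libraries numbered 2 (0.227) and in both limma fits (0.0564 and 0.0537). The E1A + oxaliplatin call was lost without HCT116 E1A + oxaliplatin replicate 1 (0.0745), whose CASP8 level of 17.8 CPM was below the 36.1 and 40.3 CPM of its group. FADD differed by 0.32, 0.26, -0.15 and -0.06 and CFLAR by -0.19, -0.16, 0.43 and 0.08 in the order untreated, E1A, oxaliplatin and E1A + oxaliplatin, with a lowest adjusted p of 0.195 by edgeR. The adaptor and the inhibitor were therefore called at no treatment. In the second table CFLAR differed by -0.70 in untreated cells (adjusted p = 0.0581). TNFRSF1A differed by -0.35, -0.45, -0.23 and -0.33 in the same order, with adjusted p of 0.15, 0.0567, 0.325 and 0.166. With E1A it was called lower in HCT116 oxpl-R by DESeq2 (adjusted p = 0.0135), both limma fits (0.0191 and 0.0228) and the fit with a filter on low counts (0.0227), and without HCT116 oxpl-R E1A replicate 1 (0.0401), and with E1A + oxaliplatin by DESeq2 (0.0471). In untreated cells it was called lower with the compared groups fitted alone (-0.36, adjusted p = 0.0284).

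**Figure D3:**
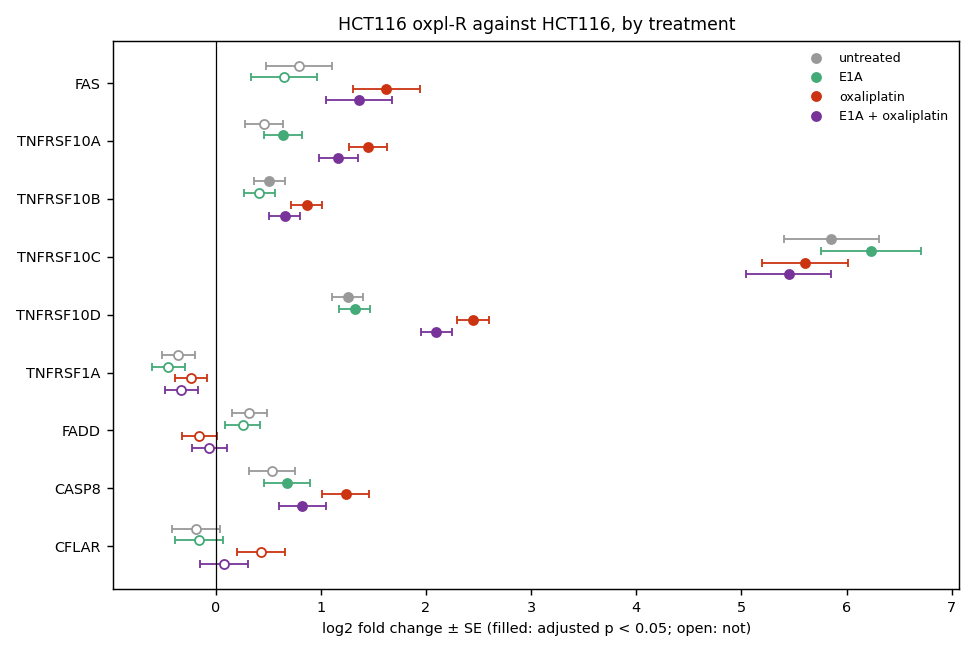
Log2 fold change of HCT116 oxpl-R against HCT116 (x axis) for the 9 genes other than TNFSF10 (y axis) at each of the 4 treatments (colours), each from 3 against 3 libraries, with bars of ± SE and filled points where the adjusted p was under 0.05. TNFRSF10C lies between 5.45 and 6.23 and TNFRSF10D between 1.26 and 2.45, and 6 genes have filled points with oxaliplatin against 3 in untreated cells.

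E1A was compared with its matched group without E1A in 4 ways, and none of the 10 genes was called by edgeR in any of them. E1A alone was called for 0.432% of genes in the count table and 0.223% in the second in HCT116, and for 0.226% and 0.158% in HCT116 oxpl-R, and at an unadjusted p under 0.05 none of the 10 genes was counted in either line. DESeq2 and limma also called 0 of the 10 genes in both. Groups did not overlap for 3 of the 10 in HCT116 (18.8% and 16.2% of all genes in the tables) and 1 in HCT116 oxpl-R (9.84% and 9.91%). E1A added to oxaliplatin was called for 0.0874% and 0.0701% of genes in HCT116, where 1 of the 10 had an unadjusted p under 0.05 and 0 were called by DESeq2 and limma, and for 1.39% and 1.42% in HCT116 oxpl-R, where 2 had. No gene in HCT116 (4.99% and 4.86% of all genes) and 2 in HCT116 oxpl-R (10.9% and 12.5%) had groups that did not overlap. The groups of the HCT116 comparison held the libraries that stood apart, HCT116 oxaliplatin replicate 3 and HCT116 E1A + oxaliplatin replicate 1. Calls without these libraries are not given here for that comparison. The same holds for the interaction of E1A with oxaliplatin in HCT116.

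The genes nearest to a call were TNFRSF1A and TNFRSF10D in HCT116 oxpl-R. With E1A + oxaliplatin TNFRSF1A was at 94.9, 87.3 and 83.1 CPM, below the 128, 120.1 and 117 CPM with oxaliplatin alone. Its log2 fold change was -0.46 (SE 0.16, adjusted p = 0.194 by edgeR), and DESeq2 gave an adjusted p of 0.0343. TNFRSF10D was at 224, 243 and 181 CPM against 289, 300.1 and 276 CPM, with a log2 fold change of -0.42 (SE 0.14, adjusted p = 0.213), an adjusted p of 0.00777 by DESeq2 and of 0.0361 by limma on log2(CPM + 1). Neither gene's groups overlapped. TNFRSF10A was at 88.5, 101 and 90.2 CPM against 145.7, 94.6 and 111 CPM, groups that overlapped, with a log2 fold change of -0.33 (SE 0.18, adjusted p = 0.6). In HCT116 TNFRSF1A was at 145, 94.5 and 93.0 CPM with E1A + oxaliplatin, where replicate 1 lay within the range of the oxaliplatin group and the others below it, and its log2 fold change was -0.37 (SE 0.16, adjusted p = 1). With E1A alone in HCT116 oxpl-R TNFRSF1A was at 82.3, 70.1 and 65.5 CPM against 86.0 to 90.8 CPM in untreated cells (log2 fold change -0.29, SE 0.16, adjusted p = 0.947).

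With E1A alone in HCT116, TNFRSF10A (log2 fold change -0.24), CASP8 (-0.29) and TNFRSF1A (-0.20) lay wholly below untreated cells, without a call. Levels of TNFRSF10B and FAS are given here. TNFRSF10B was at 144, 137 and 124 CPM in HCT116 E1A and 240.4, 182 and 195 CPM in HCT116 E1A + oxaliplatin. In HCT116 oxpl-R it was at 189.6, 182 and 168 CPM and at 344, 343 and 286 CPM. FAS was at 8.15, 6.46 and 7.27 CPM and at 10.3, 17.5 and 22.4 CPM in HCT116, and at 7.39, 9.96 and 16.97 CPM and at 35.3, 42.5 and 51.4 CPM in HCT116 oxpl-R. In each of these pairs the second group, which had oxaliplatin, lay wholly above the first. Over the 9 genes other than TNFSF10, log2 fold changes of E1A alone lay between -0.41 and 0.16 in HCT116 and between -0.29 and 0.06 in HCT116 oxpl-R. Those of E1A added to oxaliplatin lay between -0.37 and 0.19 in HCT116 and between -0.46 and 0.01 in HCT116 oxpl-R. The difference between the lines in the E1A effect and the interaction of E1A with oxaliplatin within each line were called for none of the 10 genes by edgeR, DESeq2 or limma, with 0 at an unadjusted p under 0.05. Over all genes in the count table and the second table these were called for 0.0103% and 0.00438%, for 0.0103% and 0.00876% in HCT116, and for 0.036% and 0.0613% in HCT116 oxpl-R. The comparisons of E1A and of oxaliplatin with untreated cells share their control libraries.

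Ordered by mean level, oxaliplatin came first and E1A + oxaliplatin second among the 8 groups in HCT116 oxpl-R for 7 genes: FAS, TNFRSF10A, TNFRSF10B, TNFRSF10C, TNFRSF10D, CASP8 and CFLAR. For the first 5 the third group lay below both without overlap, and TNFRSF10D was the one whose first and second group did not overlap either, with means of 288 ± 12.2 and 216 ± 31.9 CPM (SD, n = 3). The highest mean of FADD (73.5 ± 4.63 CPM) and of TNFRSF1A (143 ± 5.18 CPM) was in HCT116 with oxaliplatin. FADD overlapped between every pair of neighbours in its order. Pairs of the genes were compared over the 8 group means of log2(CPM + 1) in the second table, also for FAS and CASP8. Over these points, which share libraries and lines, TNFRSF10C and TNFRSF10D (Pearson's r = 0.987), TNFRSF10D and CASP8 (0.971) and FAS and TNFRSF10B (0.965) were the most alike. Among genes with a mean count of at least 10, those whose 8 group means on the log2(CPM + 1) scale were most like TNFRSF10A were MDM2 (r = 0.995), the ubiquitin ligase of p53, GAST (0.995), the hormone gastrin, and ANKRA2 (0.989). For TNFRSF10D they were PRKX (0.996), THBS3 (0.995) and ANXA8 (0.995), for TNFRSF10C HSF2BP (0.995), APOO (0.995) and SERPINB1 (0.994), and for TNFRSF10B GLIPR2 (0.992), KLHDC7A (0.991) and CYB5R1 (0.988). For FAS they were NME1 (0.992), PLXNB3 (0.991) and GRIN2C (0.99), and for CASP8 SDF2 (0.997), DPCD (0.995) and CBY1 (0.994). The highest r was 0.979 for TNFRSF1A (EHBP1L1), 0.989 for FADD (EEF1AKMT4) and 0.984 for CFLAR (GAS8). Each was the highest among 13369 genes, or 11089 for FAS, FADD, CASP8 and CFLAR, over only 8 points.

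The genes around the TRAIL receptors, and around CFLAR and CASP8, were counted in the same fits, from the second table and at a mean count of at least 10. Over all genes of that table, without this filter, 12.8% were called between untreated lines and 25.1% between lines with oxaliplatin. For oxaliplatin the shares were 5.8% in HCT116 oxpl-R and 16.4% in HCT116, and for the response difference 3.64%. Within 1 Mb of the 4 receptors lay 28 other tested genes. In untreated cells 2 of these were higher and 2 lower in HCT116 oxpl-R, with a median log2 fold change of -0.05, and the higher ones were HR (1.64, SE 0.17), a nuclear corepressor, and LOXL2 (1.12, SE 0.24), a lysyl oxidase. With oxaliplatin in HCT116 oxpl-R 1 rose and 1 fell (median 0.0046), against all 4 receptor genes that rose. In HCT116 9 of the 28 rose and 1 fell with oxaliplatin (median 0.32), and between the lines with oxaliplatin 3 were higher and 9 lower in HCT116 oxpl-R (median -0.38). For the oxaliplatin response none of the 28 had a larger and 4 had a smaller response in HCT116 oxpl-R (median -0.29). Around CFLAR and CASP8 lay 19 other genes, of which none rose or fell with oxaliplatin in HCT116 oxpl-R (median -0.25) while 6 fell and none rose in HCT116 (median -0.74).

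**Figure D4:**
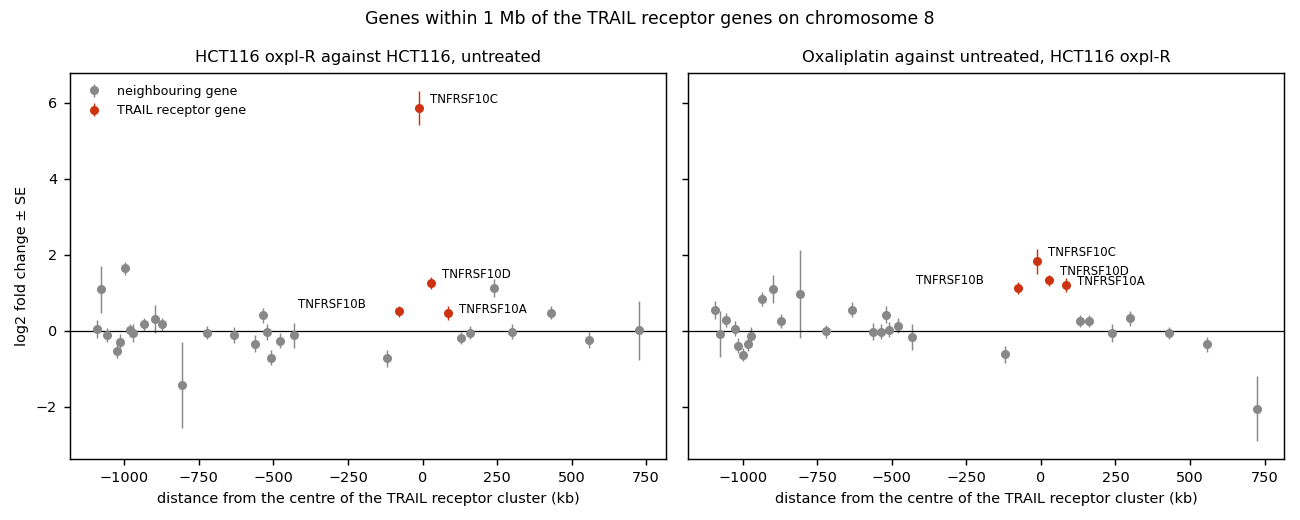
Log2 fold change with ± SE (y axis) of the 4 TRAIL receptor genes (red) and of 28 other tested genes within 1 Mb (grey) against distance from the centre of the receptor cluster (x axis, kb), for the line difference in untreated cells (left) and for oxaliplatin in HCT116 oxpl-R (right). On the right the 4 receptors lie between 1.12 and 1.83 and the neighbours have a median of 0.0046.

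Of 47 further genes of the pathway in 4 lists (other ligands, other receptors and soluble decoys, adaptors with kinases and the ubiquitin system, caspases and downstream genes), 46 were tested. With oxaliplatin in HCT116 oxpl-R 0 of the 46 were called by edgeR, with 9 at an unadjusted p under 0.05 and a median log2 fold change of 0.20. The shares over all genes were 6.11% in the count table and 5.8% in the second. In HCT116 9 rose and 5 fell, with a median of 0.043, where 17.4% and 16.4% of all genes were called. The test of the difference in response between the lines called 2 of the 46, against 2.78% and 3.64% of all genes. The largest called changes of the 46 with oxaliplatin in HCT116 included TNFRSF6B, the soluble decoy DcR3 (log2 fold change -1.97). The others were the receptors EDAR (1.88), NGFR (1.72) and TNFRSF1B (1.14), along with SHARPIN (1.06), a subunit of the linear ubiquitin ligase. The oxaliplatin response was larger in HCT116 oxpl-R for APAF1, the core of the apoptosome (1.37, SE 0.37, adjusted p = 0.037 by edgeR), and smaller for SHARPIN (-0.82, SE 0.22, adjusted p = 0.0344). None of the 5 other ligands was called in any comparison.

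Between the lines 2 of the 46 were higher and 6 lower in HCT116 oxpl-R when untreated, 3 and 6 with E1A, 6 and 9 with oxaliplatin, and 4 and 8 with E1A + oxaliplatin, with median log2 differences of -0.044, -0.16, 0.038 and -0.17. Of all genes in the count table, 14.1%, 14.4%, 25.6% and 19.3% were called in the same order. In the second table the shares were 12.8%, 12.2%, 25.1% and 18%. TNFRSF6B, whose locus is shared with RTEL1 so that its counts are uncertain, was higher at each treatment, from 2.89 (SE 0.35) untreated to 4.61 (SE 0.39) with E1A + oxaliplatin. CASP10, the caspase gene between CFLAR and CASP8, was lower untreated (-2.79, SE 0.52, at 0.385 against 2.67 CPM), with E1A (-2.89) and with E1A + oxaliplatin (-2.06). In the second table, read for these lists after seeing the data, CASP10 differed by -1.27 in untreated cells, which was not called (SE 0.61, adjusted p = 0.196), by -2.33 with E1A and by -1.81 with E1A + oxaliplatin, which were. APAF1 was higher with oxaliplatin (1.60, SE 0.27) and with E1A + oxaliplatin (1.29), and BID, the substrate that ties CASP8 to mitochondria, was lower with oxaliplatin (-1.22, SE 0.19). With E1A, CYCS, the cytochrome c gene, was higher (1.22) and so was the adaptor TRAF1 (1.68). RBCK1 was lower with oxaliplatin (-1.25) and with E1A + oxaliplatin (-1.03), NGFR lower (-1.26) and the deubiquitinase CYLD higher (1.13) with oxaliplatin, DAXX lower with E1A + oxaliplatin (-1.13), and TNFRSF1B higher in untreated cells (1.33). CASP9, the initiator caspase of the mitochondrial pathway, was called higher in the E1A groups, all given doxycycline, in 3 of 4 comparisons. Effects of E1A and of doxycycline cannot be told apart there. CASP9 differed by 0.93 with E1A alone in HCT116 oxpl-R (adjusted p = 0.0169 by edgeR). With E1A added to oxaliplatin it differed by 0.99 in HCT116 (adjusted p = 0.0178) and by 1.01 in HCT116 oxpl-R (adjusted p = 0.00149). It was the one gene of the 46 called in those comparisons, and for E1A alone in HCT116 0 were called, with 4 at an unadjusted p under 0.05. Over all genes in the count table and the second, E1A alone was called for 0.226% and 0.158% in HCT116 oxpl-R. The shares were 0.432% and 0.223% in HCT116. Added to oxaliplatin, E1A was called for 0.0874% and 0.0701% in HCT116 and 1.39% and 1.42% in HCT116 oxpl-R. These lists were read from the edgeR fit alone.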

How the data were processed

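RNA sequencing of 24 libraries was analysed from 2 deposited tables. The authors trimmed reads with Trimmomatic, quantified them with Salmon 1.6.0 on GRCh38 transcripts, summed them to genes with tximport and deposited estimated counts. The second deposited table is named for TPM, but its columns sum to at least 28004261 and not to 1000000, and it was read as length-scaled estimated counts. The tables were used as far as they were complete (33113 and 37967 genes), with rounded values. In edgeR 4.0.16 (R 4.3.3), a quasi-likelihood fit with TMM scaling and 8 groups covered all libraries and each gene with a count (19452 and 22833), two-sided, with Benjamini-Hochberg adjustment per table at 0.05. SE is the size of the log2 fold change over the square root of F. Alternatives were DESeq2 1.42.0, limma 3.58.1 on log2(CPM + 1) and log2(CPM + 0.1), other normalization, a filter, the compared groups alone, left-out libraries and a replicate block. The fit was tested on simulated data.

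Replicates are named biological, but separate cultures are not described, so p-values measure the spread between these libraries. Same-numbered libraries deviated together with every correlation over 0.1 only between the oxaliplatin groups of the lines (0.145, 0.197 and 0.26), and there the block changed no call. The 10 genes and the lists were chosen with earlier results of these data known. Pathway genes were named at an adjusted p under 0.05, a log2 fold change over 1 in size and a mean count of at least 10, at most 6 per comparison. SHARPIN in the interaction and CASP9 with smaller changes were named after their values were seen. VIL1 and VIM were not analysed here. Another gene of the marker lists is not reported here.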

Additional observations from a re-analysis of the deposited data

Results flagged for a closer look

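The oxaliplatin response of 2 genes differed between the lines by the interaction test of edgeR. TNFRSF10A rose by 0.99 more on the log2 scale in HCT116 oxpl-R than in HCT116, with treated libraries at 94.6 to 145.7 CPM against 35.8 to 48.9 CPM. TNFRSF10D rose by 1.19 more in HCT116 oxpl-R, with treated libraries at 276 to 300.1 CPM against 50.2 to 56.6 CPM. In HCT116 the treated and untreated libraries of both genes overlapped. With the 2 HCT116 libraries that stood apart left out, 2 of the 10 genes were called for this difference. The TNFRSF10A call was lost in 7 fits that each left out 1 library (adjusted p between 0.0508 and 0.0762) and without the HCT116 oxpl-R libraries numbered 3 (0.0553).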

How the results depend on the processing

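With oxaliplatin the line comparison called 6 of the 10 genes under every alternative. The count in untreated cells was 7 with the compared groups fitted alone instead of 3, adding FAS, TNFRSF10A, TNFRSF1A and CASP8, and 2 to 3 with 1 library left out. With 1 library left out the count was 2 to 5 for E1A between lines (4), 5 to 6 for E1A + oxaliplatin between lines (6), 2 to 4 for oxaliplatin in HCT116 (4), 5 to 6 in HCT116 oxpl-R (6) and 1 to 2 for the difference in oxaliplatin response (2), which was 1 without the HCT116 oxpl-R libraries numbered 3. Without those numbered 2 the count for E1A between lines was 2, TNFRSF10A and CASP8 being lost. The libraries whose loss lowered the count for oxaliplatin in HCT116 to 2 were HCT116 control replicates 1 and 2. For E1A added to oxaliplatin in HCT116 oxpl-R, DESeq2 called 2 genes and limma on log2(CPM + 1) 1 gene. Leaving out HCT116 oxaliplatin replicate 3 and HCT116 E1A + oxaliplatin replicate 1 together, chosen after seeing the data like the sets numbered 3 and 2, gave 6, 6, 4 and 2 calls for the line with oxaliplatin, the line with E1A + oxaliplatin, oxaliplatin in HCT116 and the difference in response. The causes were not tested.

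The replicate block moved the count for E1A between lines from 4 to 6, adding TNFRSF10B (0.42) and TNFRSF1A (-0.46), and changed no other call. DESeq2, both limma fits and the filter on low counts called both genes there too. Turns of direction concerned log2 values without a call, except the 1.18 given last. With 1 library left out, CFLAR between untreated lines lay between -0.41 and 0.030 (highest without HCT116 oxpl-R control replicate 3), CFLAR between lines with E1A + oxaliplatin between -0.095 (without HCT116 E1A + oxaliplatin replicate 3) and 0.16, and turned also without HCT116 oxpl-R E1A + oxaliplatin replicate 2 (-0.053). FADD between lines with E1A + oxaliplatin lay between -0.24 and 0.037 (without HCT116 E1A + oxaliplatin replicate 1), FADD with oxaliplatin in HCT116 oxpl-R between -0.028 (without HCT116 oxpl-R oxaliplatin replicate 1) and 0.24, and the response difference of TNFRSF10C between -1.2 and 0.10 (highest without HCT116 control replicate 3). Without the libraries numbered 3 CFLAR between untreated lines was 0.030, without those numbered 2 CFLAR between lines with E1A + oxaliplatin was -0.12, and without both HCT116 libraries that stood apart FADD between lines with E1A + oxaliplatin was 0.037. In the second table CFLAR was -0.10 between lines with E1A + oxaliplatin and -0.12 with oxaliplatin in HCT116. By limma the response difference of TNFRSF10C was 0.099 with the smaller and 1.18 with the larger pseudocount. Over all genes, the interaction of oxaliplatin and line called 540 genes in the count table and 830 in the second, against 1327 and 1738 by DESeq2, and oxaliplatin in HCT116 oxpl-R 1188 and 1324 against 1793 and 2074.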
